A study of Mus musculus with 3 samples.

Results

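The cytokines LIF and IL6, their receptor chains, the kinase JAK1, the transcription factor STAT3 and its feedback inhibitor SOCS3 form one signalling axis, and transcripts of its genes were measured in pre-implantation embryos of 2 inbred mouse strains. The genes were taken by symbol from a list of 8 (Lif, Il6, Lifr, Il6ra, Il6st, Jak1, Stat3 and Socs3), and all 8 were found among the 24063 genes of the count table. B6 is C57BL/6, which does not develop autoimmune diabetes, and NOD is the non-obese diabetic strain, which does. There were 3 low-input RNA-Seq libraries of untreated embryos, 1 from a B6 blastocyst and 2 from NOD blastocysts (NOD 1 and NOD 2). The comparison addresses the study's question of whether the strains differ in gene expression before implantation.

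LIF binds its receptor chain LIFR and IL6 binds its receptor chain IL6RA, and both complexes signal through the shared chain gp130, which is encoded by Il6st. JAK kinases on gp130 then phosphorylate STAT3, which enters the nucleus and switches on its targets, among them Socs3, whose product binds gp130 and the JAKs and turns the signal down. LIF is the factor that keeps mouse ES cells in self-renewal through STAT3, and in the embryo gp130 is needed to keep the epiblast alive during delayed implantation. In the blastocyst, Lif transcripts are known mainly from the trophectoderm and those of the receptor chains from the inner cell mass.

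The libraries limit what can be read from the comparison. The B6 group was 1 library with no replicate, so the spread came from the 2 NOD libraries and an exact permutation test over the libraries cannot go below p = 0.333. The libraries held 12505685 (B6), 33891715 (NOD 1) and 36171013 (NOD 2) counts on genes, so that NOD 1 was 2.71 times and NOD 2 2.89 times as deep as B6. The labels describe whole blastocysts and the methods of the study describe single inner cell masses. Markers of the trophectoderm (8 genes) summed to 3037 CPM (counts scaled to library size) in B6, 1724 CPM in NOD 1 and 1582 CPM in NOD 2, which means that trophectoderm transcripts were present in every library. The summed level of 8 epiblast markers was 433 CPM in B6, 603 CPM in NOD 1 and 866 CPM in NOD 2, with Tdgf1 (1.47, 30.3 and 48.6 CPM) and Zfp42 (61.6, 154.6 and 220.6 CPM) called higher in NOD and Sox2 (49.8, 5.75 and 9.61 CPM) called lower. The 6 primitive endoderm markers summed to 391, 118 and 158 CPM, most of it Gata6 (385.1, 91.5 and 129.8 CPM), which was called lower in NOD, while Pdgfra was called higher (5.5, 23.6 and 24.6 CPM). The calls of Zfp42 and Pdgfra were lost with total-count scaling and with upper-quartile factors, and that of Pdgfra also with edgeR's default dispersion. Leukocyte markers summed to between 0.294 and 1.03 CPM, with Ptprc, Lyz2, Fcer1g and Cd79a at 0 counts in all 3. Cumulus and uterine markers summed to between 0 and 1.12 CPM, with Has2, Ptx3 and Ltf at 0 throughout. In such bulk samples, fewer cells of a type and less RNA per cell cannot be told apart, and the part of these marker levels in the results was not tested. Nothing states that NOD 1 and NOD 2 came from separate litters, and p-values measure only the spread between these libraries.

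Among the genes of the axis, Lif was about 10-fold lower in both NOD libraries than in B6, while Il6st was found in both NOD libraries and had no count in B6. CPM values here are scaled by TMM factors, and a gene was called when edgeR's quasi-likelihood test, adjusted by Benjamini-Hochberg over 14456 genes, gave p under 0.05 with at least a 2-fold change. Of the 8 genes, 1 was called higher in NOD (Il6st), against 10.3% of all genes tested. Another 1 was called lower (Lif), against 7.39% of all genes tested. These counts are near the shares over all genes and are no result about the axis as a group. For the remaining 6 the test was not passed. Both NOD libraries were above B6 for 4 of the genes (Il6, Il6st, Jak1 and Socs3) and both were below it for 3 (Lif, Il6ra and Stat3), beside 45.3% and 39.4% of all genes tested. Scaling by total counts alone left 2 of the 4 above B6 in both (Il6 and Il6st). Il6st, Il6 and Lifr passed the filter on low counts only through NOD. The median log2 fold change (NOD minus B6) was 0.61 over the 8 genes and 0.26 over all genes tested.

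**Figure D1:**
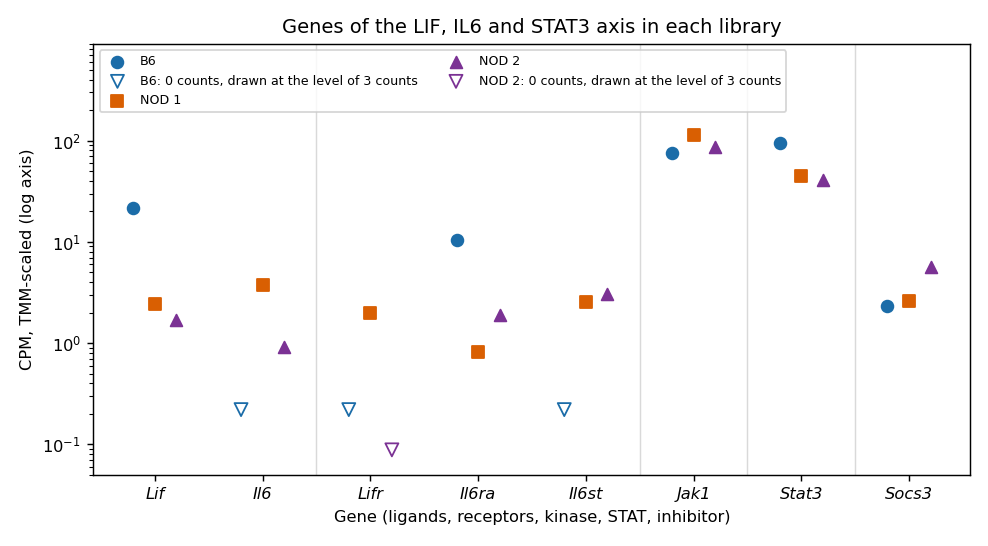
Level of each gene of the axis in each library (y axis, TMM-scaled CPM on a log axis), ordered by role along the x axis. Filled symbols are measured values, and open triangles mark libraries with 0 counts, drawn at the level of 3 counts. Lif, Il6ra and Stat3 lie lower in both NOD libraries than in B6, and Il6 and Il6st were counted in NOD only.

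Lif, the ligand that gives the axis its name in ES cells, stood at 21.6 CPM in B6 (295 counts), 2.45 CPM in NOD 1 (81 counts) and 1.70 CPM in NOD 2 (58 counts). Both NOD libraries were far below B6 and close to each other, with a NOD mean of 2.08 ± 0.53 CPM (SD, n = 2). The log2 fold change was -3.38 with a standard error of 0.60 (edgeR adjusted p = 0.0323), a level 10.4-fold higher in B6. The call was lost without the filter on low counts (edgeR adjusted p = 0.0729) and with limma-voom (adjusted p = 0.0724). From the counts alone, NOD was at 0.0957 of the B6 level, with an exact Clopper-Pearson 95% interval from 0.0777 to 0.117. Such an interval covers the counting of reads alone. PCR copies without molecular identifiers do not count molecules, so it leaves out the sampling of molecules and the spread between embryos. The deficit was seen with either NOD library alone, at log2 fold changes of -3.14 for NOD 1 and -3.65 for NOD 2. The counted transcript (NM_001039537, chr11:4266796-4272514, plus strand, mm10) has 3 exons, and no 50-base word of any Lif transcript occurred in transcripts of another gene.

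Il6, the inflammatory cytokine that shares gp130 with LIF, showed the opposite arrangement with much more scatter. It had 0 counts in B6, 123 counts in NOD 1 (3.72 CPM) and 31 counts in NOD 2 (0.911 CPM). B6 lay below both NOD libraries, but NOD 1 was 4.08 times NOD 2. Against a B6 level of 3 counts (0.220 CPM), which a count of 0 allows, the NOD mean of 2.32 ± 1.99 CPM (SD, n = 2) was at least 10.5-fold higher. That bound was set mostly by NOD 1, and with 1 NOD library at a time it was 16.9-fold for NOD 1 and 4.14-fold for NOD 2. The edgeR test did not call Il6 (adjusted p = 0.0790). A count of 0 in B6 was common at this level too: of the 1311 genes whose NOD mean was within 1.5-fold of that of Il6, 21.7% had 0 counts in B6. Il6 is encoded at chr5:30013161-30019968 on the plus strand (NM_031168, 5 exons) and shared no 50-base word with another gene.

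Among the receptors, Il6ra was lower and Il6st higher in both NOD libraries than in B6. Il6ra, the chain that binds IL6, was at 10.4 CPM in B6 (142 counts), 0.817 CPM in NOD 1 (27 counts) and 1.88 CPM in NOD 2 (64 counts). B6 lay above both NOD libraries, which differed from each other by a factor of 2.30. The NOD mean was 1.35 ± 0.75 CPM (SD, n = 2), or 0.130 of the B6 level (95% interval of counting from 0.0989 to 0.171). The log2 fold change of -2.95 had a standard error of 0.85 and was not called by edgeR (adjusted p = 0.0733). The gene lies at chr3:89869324-89913162 on the minus strand (NM_010559, 10 exons). It shares 6.22% of its exon bases with the antisense gene Gm42809, which has no row in the table, and the counting took both strands together, so reads from that stretch cannot be assigned to one of them.

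Il6st encodes gp130, the signalling chain shared by LIF, IL6 and their relatives. It had 0 counts in B6, 84 counts in NOD 1 (2.54 CPM) and 105 counts in NOD 2 (3.09 CPM). The NOD libraries lay close together at a mean of 2.81 ± 0.38 CPM (SD, n = 2), and neither overlapped B6. At that mean, 38.3 counts would fall in a library of the B6 depth, and the NOD level was at least 12.8-fold higher than the 3 counts that a B6 count of 0 allows. The edgeR call was a narrow one (adjusted p = 0.0495), and it was lost with total-count scaling (adjusted p = 0.0560), with upper-quartile factors (0.0577) and with edgeR's default dispersion (0.236). Over all alternatives the adjusted p lay between 0.0208 and 0.413. A count of 0 in B6 was also common at this level: of the 1313 genes whose NOD mean was within 1.5-fold of that of Il6st, 18.7% had 0 counts in B6. Il6st lies at chr13:112464070-112506860 on the plus strand (NM_010560, 17 exons) and shared no 50-base word with another gene.

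Lifr, the chain that binds LIF, was counted in 1 library only. It had 66 counts in NOD 1 (2.0 CPM) and 0 counts in both B6 and NOD 2. The NOD libraries therefore differed from each other, and NOD 2 could not be told from B6. A count of 0 allows up to 0.220 CPM in B6 and up to 0.0882 CPM in NOD 2. Its difference did not pass the edgeR test (adjusted p = 0.305), and without NOD 1 nothing remained of it. Of the 1235 genes whose NOD mean was within 1.5-fold of that of Lifr, 200 (16.2%) had 0 counts in 1 NOD library only, and 36.6% had 0 counts in B6. Of 10929 genes with at least 66 counts in NOD 1, most of them not near the level of Lifr, 69 (0.631%) had 0 counts in NOD 2. The counted transcript is NM_013584 (chr15:7140542-7197489, plus strand, 20 exons), and 0.296% of the 50-base words of all transcripts of Lifr occurred in other genes.

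**Figure D2:**
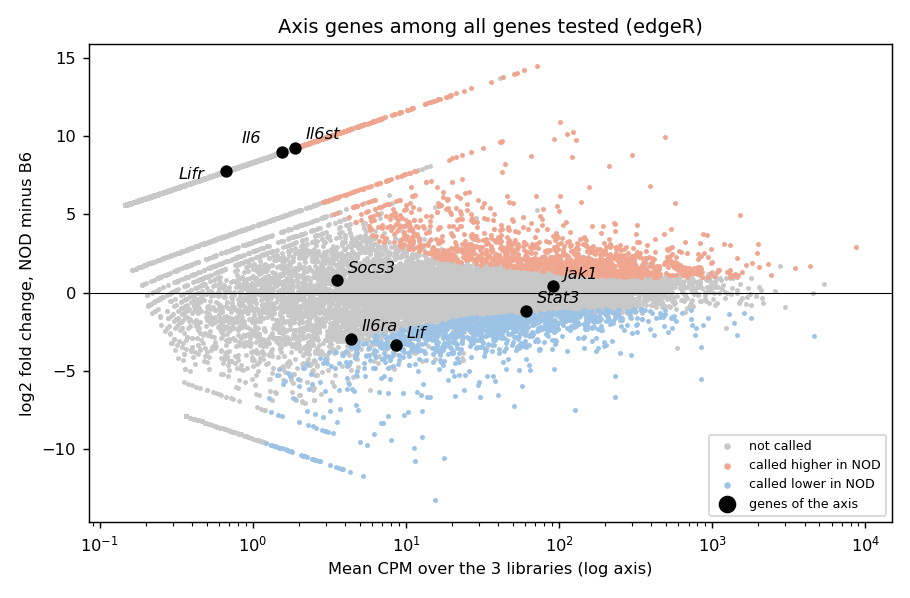
Fold change against mean level for all 14456 genes tested (x axis, mean CPM over the 3 libraries on a log axis; y axis, edgeR log2 fold change, NOD minus B6). Black points are the genes of the axis, red and blue points were called higher and lower in NOD, and grey points were not called. The straight bands at the edges are genes at or near 0 counts in 1 strain, whose fitted values, including those of Lifr, Il6 and Il6st, depend on the prior count and are no measure of size.

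Jak1, the kinase bound to gp130, and Stat3, the factor it activates, were the most abundant transcripts of the axis and gave the most precise values. Jak1 was at 75.1 CPM in B6 (1024 counts), 113.0 CPM in NOD 1 (3737 counts) and 86.5 CPM in NOD 2 (2944 counts). Both NOD libraries were above B6, but NOD 2 was nearer to B6 than to NOD 1, and the NOD mean was 99.8 ± 18.8 CPM (SD, n = 2). The log2 fold change of 0.41 with a standard error of 0.33 was not called (edgeR adjusted p = 0.388), and it lay 0.15 above the median of all genes tested. With total-count scaling NOD 2 was no longer above B6. Jak1 (NM_146145, chr4:101151974-101265282, minus strand, 25 exons) shares 4 exon bases with Raver2 on the opposite strand, a gene with 34 to 60 counts.

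Stat3 was at 95.5 CPM in B6 (1302 counts), 44.8 CPM in NOD 1 (1480 counts) and 41.1 CPM in NOD 2 (1399 counts). Both NOD libraries were below B6 and differed from each other by a factor of 1.09. The NOD mean of 42.9 ± 2.59 CPM (SD, n = 2) was 0.449 of the B6 level, with a 95% interval of counting from 0.421 to 0.480. The log2 fold change of -1.15 with a standard error of 0.32 missed the threshold in edgeR (adjusted p = 0.0673) and was called by DESeq2 (adjusted p = 0.0153). Over the other alternatives the adjusted p of Stat3 lay between 0.0561 and 0.120. Stat3 is at chr11:100886810-100939511 on the minus strand (NM_213660, 24 exons), and 0.555% of its 50-base words occur in other genes.

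The ratio of Stat3 to Jak1 needs no scaling between libraries. Per length, Stat3 was 1.5 times Jak1 in B6, 0.468 times in NOD 1 and 0.562 times in NOD 2. The order of the pair was therefore reversed between the B6 library and both NOD libraries. In counts the ratio was 1.27 in B6 (95% interval 1.17 to 1.38), 0.396 in NOD 1 (0.373 to 0.421) and 0.475 in NOD 2 (0.446 to 0.507). The intervals of both NOD libraries lay below that of B6, and those of the NOD libraries did not overlap each other. Such intervals cover the counting of reads alone and leave out the spread between embryos, which is not known for B6.

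Socs3, the feedback inhibitor and a direct STAT3 target, was at 2.35 CPM in B6 (32 counts), 2.60 CPM in NOD 1 (86 counts) and 5.70 CPM in NOD 2 (194 counts). NOD 1 was close to B6, and the higher NOD mean of 4.15 ± 2.19 CPM (SD, n = 2) came mostly from NOD 2. The log2 fold change was 0.82 with a standard error of 0.96 and was not called (edgeR adjusted p = 0.543). It was 0.15 with NOD 1 alone and 1.29 with NOD 2 alone. Per Stat3 count, Socs3 stood at 0.0246 in B6 (95% interval 0.0167 to 0.0349), 0.0581 in NOD 1 (0.0462 to 0.0722) and 0.139 in NOD 2 (0.119 to 0.161). This ratio was higher in both NOD libraries than in B6, and the NOD libraries also stood apart from each other. Lif per Stat3 count ran the other way, at 0.227 in B6, 0.0547 in NOD 1 and 0.0415 in NOD 2.

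STAT3 binds DNA at sites of the form TTCNNNGAA, which reads the same on both strands. In the RefSeq promoter windows (GRCm38.p6, 250 bases before to 50 after the start site), 2726 of 32851 windows (8.30%) hold these letters. All 8 genes had a window, and among them the letters were found in that of Socs3 alone, as TTCTTAGAA with its first base 154 bases before the start site. The Lif window lies 9228 bases from the start of the counted transcript and so describes another start. The stretch from 250 to 101 bases before the start is shown 5′ to 3′ for Socs3 (chr11:117969467-117969616, minus strand), with the match in capitals, and for Il6st (chr13:112463820-112463969, plus strand), the gene called higher, which has no match.
Socs3: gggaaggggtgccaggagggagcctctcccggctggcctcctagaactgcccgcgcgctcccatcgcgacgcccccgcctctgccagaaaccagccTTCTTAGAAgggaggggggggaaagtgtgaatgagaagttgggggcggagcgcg
Il6st: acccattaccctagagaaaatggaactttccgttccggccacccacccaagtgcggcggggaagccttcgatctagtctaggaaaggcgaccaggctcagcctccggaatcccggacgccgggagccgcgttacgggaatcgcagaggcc
A match describes these letters only, and no binding was measured here. The Socs3 gene (NM_007707, chr11:117966087-117969366, minus strand, 2 exons) shared no 50-base word with another gene.

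Levels of different genes were compared per length, as FPKM, the counts divided by transcript length and by the total counts on genes, without TMM factors. In B6 the order was Stat3 (23.4 FPKM), Jak1 (15.5), Lif (5.76), Il6ra (3.41) and Socs3 (0.941), with Il6, Il6st and Lifr at 0. In both NOD libraries Jak1 came first (20.9 and 15.4 FPKM) and Stat3 second (9.80 and 8.68). The 2 NOD libraries did not overlap between these 2 genes. Il6 (3.36 and 0.794 FPKM) and Socs3 (0.933 and 1.97) followed and overlapped each other. Il6st (0.456 and 0.534), Lif (0.584 and 0.392) and Il6ra (0.239 and 0.531) overlapped further down, and Lifr was lowest (0.202 and 0). Stat3 exceeded 77.1% of the genes with a count anywhere in B6, 66.7% in NOD 1 and 66.0% in NOD 2.

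**Figure D3:**
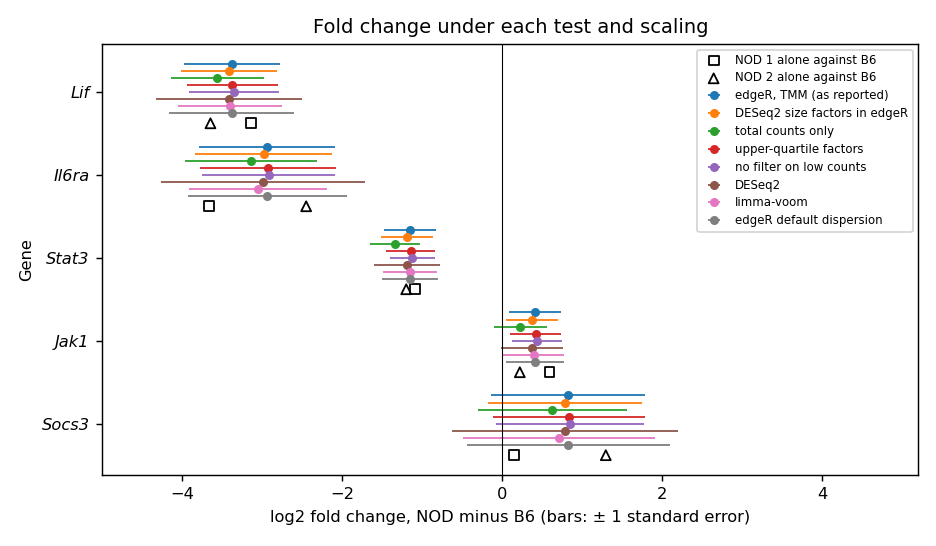
Log2 fold change (x axis, NOD minus B6) of the 5 genes of the axis with counts in every library, under each test and scaling (colours, bars are ± 1 standard error) and with each NOD library alone (open symbols, no test). Lif, Il6ra and Stat3 stayed below 0 in every setting drawn, and the bars of Socs3 and of some settings of Jak1 crossed 0.

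The genes most like each member in their profile over the 3 libraries were found as the smallest distances between centred log2(CPM + 1) values, among 10841 genes with at least 10 counts in every library. Stat3 was nearest to Mrm1, Plbd2 and Ccdc34, with 95 genes within a distance of 0.1. Lif was nearest to Rps19, Slc5a11 and Arhgef18, with 10 genes within 0.1, and Il6ra to Rem1, Fhod1 and Nlrp14, with 4. Trim13 and Syncrip were among the nearest to Jak1 (78 genes within 0.1), and Shisa4 and Slc1a5 among the nearest to Socs3 (22 genes). With 3 libraries such likeness is a description of these libraries.

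Other ligands and receptors of the gp130 family were mostly low or absent. Of 10 further ligands, 4 had 0 counts in all libraries and 5 were tested. Ctf1, which encodes cardiotrophin 1 and signals through LIFR and gp130, was the 1 called, beside 10.3% of all genes called higher. It had 0 counts in B6, 147 in NOD 1 (4.45 CPM) and 158 in NOD 2 (4.64 CPM). The NOD libraries were nearly equal, and their mean of 4.54 ± 0.14 CPM (SD, n = 2) was at least 20.6-fold higher than 3 counts in B6 (edgeR adjusted p = 0.0349), a call that was lost with edgeR's default dispersion. Like Il6st, it passed the filter on low counts only through NOD, and of the 1462 genes with a NOD mean within 1.5-fold of its own, 11.4% had 0 counts in B6. Cntf, another LIFR ligand, was at 4.92 CPM in B6, 8.41 CPM in NOD 1 and 0.0588 CPM in NOD 2, so that the NOD libraries lay on either side of B6. Osm, the ligand oncostatin M, was at 2.05, 0.968 and 4.70 CPM. Ctf2, a further cardiotrophin-like ligand, had counts in NOD 2 only (0.470 CPM).

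Of 6 further receptor chains, 3 had no count in any library, among them Osmr, the oncostatin M receptor, and none of the 3 tested was called by edgeR or DESeq2 (1 at an unadjusted p under 0.05, beside 39.9% of all genes tested). Il11ra1, the IL11 receptor chain, was at 5.06 CPM in B6, 5.99 CPM in NOD 1 and 6.38 CPM in NOD 2. Il27ra, the IL27 receptor chain, was lower in both NOD libraries (5.65, 1.06 and 0.705 CPM) without passing the test (edgeR adjusted p = 0.108). Cntfr, the CNTF receptor chain, was counted in NOD 2 only (0.646 CPM).

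Among 9 other JAK kinases and STAT factors, of which 8 were tested, Jak3 was called lower and none was called higher, beside 7.39% and 10.3% of all genes tested. The NOD libraries were both above B6 for 2 of the 8 and both below it for 4, beside 45.3% and 39.4% of all genes tested. With total-count scaling these counts were 1 and 5. Jak3, which pairs with the common gamma chain receptors rather than gp130, was at 10.3 CPM in B6, 0.635 CPM in NOD 1 and 0.646 CPM in NOD 2 (log2 fold change -4.0, standard error 0.79, edgeR adjusted p = 0.0380). The NOD libraries were almost identical and far below B6. Jak2 (11.4, 12.0 and 10.4 CPM) and Tyk2 (15.2, 18.1 and 15.7 CPM), the kinases that join JAK1 on gp130, were not called (edgeR adjusted p = 0.967 and 0.816). Stat6, a mediator of IL4 signals, was at 37.1, 64.1 and 90.1 CPM, and Stat5a, a mediator of cytokine and hormone signals, at 38.5, 11.4 and 23.3 CPM. Neither passed the edgeR test (adjusted p = 0.120 and 0.185). DESeq2 called 0 of the 8 higher and 2 lower, beside 16.4% and 13.1% of all genes in that test. The median log2 fold change of the list was -0.59.

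The adaptors that carry gp130 signals into the MAPK and PI3K branches were all tested, and 0 of 9 was called by edgeR. At an unadjusted p under 0.05 there were 5 of the 9, beside 39.9% of all genes tested, and DESeq2 called 1 lower, beside 13.1% of all genes in that test. A total of 7 were below B6 in both NOD libraries and 1 (Gab2) was above it, beside 39.4% and 45.3% of all genes tested, at a median log2 fold change of -0.90. Gab1, a docking protein, was at 81.0 CPM in B6, 75.5 CPM in NOD 1 and 60.3 CPM in NOD 2. Sos1, the exchange factor that loads RAS, was at 100.7, 69.3 and 38.4 CPM, and Grb2, its adaptor, at 65.9, 51.3 and 51.1 CPM. Ptpn11, the phosphatase SHP2 that docks on gp130, was at 51.9, 47.5 and 53.6 CPM and overlapped between the strains.

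Of 15 inhibitors of JAK and STAT signalling besides Socs3, 14 were tested, and 3 were called higher and none lower, beside 10.3% and 7.39% of all genes tested. Both NOD libraries were above B6 for 9 of the 14 and below it for 5, beside 45.3% and 39.4% of all genes. Socs1, which blocks JAK kinases, was at 35.1 CPM in B6, 125.4 CPM in NOD 1 and 125.5 CPM in NOD 2 (log2 fold change 1.84, standard error 0.31, edgeR adjusted p = 0.0299). Ptpn6, the phosphatase SHP1, was at 5.65, 33.8 and 33.2 CPM (log2 fold change 2.57, standard error 0.46, edgeR adjusted p = 0.0323). In both cases the NOD libraries were nearly equal and well above B6. Ptpn2, a phosphatase of JAK1 and STAT3, was at 63.3, 151.8 and 179.8 CPM (log2 fold change 1.39, standard error 0.30, edgeR adjusted p = 0.0426), a call lost with total-count scaling and with upper-quartile factors. DESeq2 called 6 of the 14 higher and 1 lower, beside 16.4% and 13.1% of all genes in that test. Pias1, an inhibitor of STAT DNA binding, was at 17.9, 51.1 and 73.7 CPM and missed the threshold (edgeR adjusted p = 0.0540). Pias2, of the same family, was at 99.6, 115.3 and 131.6 CPM. Ptpn1, a phosphatase of JAK2, was lower in both NOD libraries (68.6, 37.4 and 36.3 CPM, edgeR adjusted p = 0.119), as was Pias4 (56.9, 43.1 and 35.1 CPM, adjusted p = 0.310). The median log2 fold change over the list was 0.70.

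The 15 genes listed as STAT3 targets in ES cells were all tested, with 1 called higher and 2 called lower, beside 10.3% and 7.39% of all genes tested. Sgk1, a kinase induced by many signals besides STAT3, was at 30.8 CPM in B6, 207.5 CPM in NOD 1 and 238.3 CPM in NOD 2 (log2 fold change 2.85, standard error 0.30, edgeR adjusted p = 0.0203). Klf5, a pluripotency and trophectoderm factor, was at 992.8, 414.5 and 280.6 CPM (log2 fold change -1.51, standard error 0.29, edgeR adjusted p = 0.0354). Sall4, a pluripotency factor, was at 500.2, 168.8 and 202.8 CPM (log2 fold change -1.43, standard error 0.23, edgeR adjusted p = 0.0287). The NOD libraries did not overlap B6 for any of these 3 genes. Tfcp2l1, the target that carries much of the LIF effect in ES cells, was at 635.6, 352.2 and 307.7 CPM. It passed the p threshold but was short of a 2-fold change (log2 fold change -0.95, edgeR adjusted p = 0.0474), and with total-count scaling it was called lower. DESeq2 called 1 of the 15 higher and 3 lower, beside 16.4% and 13.1% of all genes in that test. Pramel7, another LIF target, was at 468.4, 320.4 and 410.8 CPM, Mcl1, a survival factor, at 237.0, 283.0 and 278.8 CPM, and Kdm3a, a histone demethylase, at 29.7, 36.9 and 41.8 CPM, and none of the 3 was called. Both NOD libraries were above B6 for 4 of the 15 and below it for 7 (45.3% and 39.4% over all genes), and the median log2 fold change was -0.22. Trophectoderm markers were lower in both NOD libraries as well, for 7 of 7 tested (39.4% over all genes), at 0.568 and 0.521 of the summed B6 level. Of these 7, edgeR called 0 and DESeq2 called 3 lower, beside 7.39% and 13.1% of all genes called lower in these tests. Summed epiblast markers were at 1.39 and 2.0 times B6, with 5 of 8 above and 3 of 8 below B6 in both NOD libraries. The part of both marker groups in the levels of the targets was not tested.

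**Figure D4:**
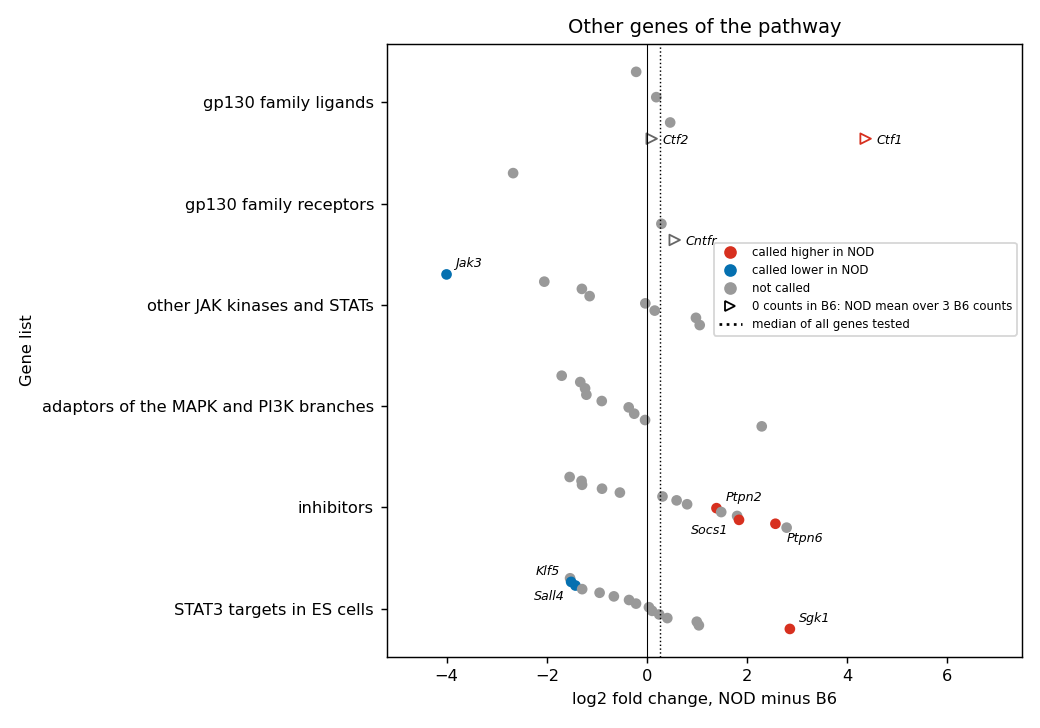
Log2 fold change (x axis, NOD minus B6) of each gene tested in the 6 lists of other pathway genes. Each point is a gene, red and blue points were called higher and lower in NOD, open triangles are genes with 0 counts in B6 drawn at the NOD mean over 3 B6 counts, and the dotted line is the median of all genes tested (0.26). Calls among the inhibitors lay to the right only (Socs1, Ptpn2 and Ptpn6), and those among the STAT3 targets lay on both sides.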

How the data were processed

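Low-input RNA-Seq libraries (SMART-Seq v4, 19 PCR cycles, single-end 50-base reads) were grouped by strain from the labels. The authors aligned reads to mm10 with STAR (version 2.2.0c in the submitters' processing notes) and deposited raw counts per RefSeq gene from HOMER, on exons, both strands together, 1 transcript per gene. The deposited table names 2 further libraries only in its counting command, not used here. The members, gene lists and alternatives were chosen with earlier results of these data known. Genes were named by rule: every member, every called gene of a list and up to 4 further genes of highest mean CPM, and the 3 nearest genes in profile. Some genes of the marker lists are not printed, and the results for 3 genes that the rule names are not reported here.

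Counts were filtered with filterByExpr (minimum count 10), TMM-scaled (factors 1.090, 0.975 and 0.941) and tested with edgeR 4.0.16 (quasi-likelihood, trended dispersion, prior count 0.125) in R 4.3.3, with 1 residual degree of freedom. Standard errors were taken as log2 fold change over the root of F. The test was checked on counts simulated from its own fitted model, which cannot show whether that model holds for these libraries. Alternatives used DESeq2 1.42.0 and limma 3.58.1. A floor is 3 counts, equal to 0.220 CPM for B6 and to 0.0908 and 0.0882 CPM for the NOD libraries. Gene spans overlapped GENCODE M21 (GRCm38) for 98.6% of 22832 genes, and exons and 50-base words come from that annotation. Coordinates are as deposited. How reads with several alignments were counted is not given in the sources used here.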

Additional observations from a re-analysis of the deposited data

How the results depend on the processing

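With 1 B6 library and 1 residual degree of freedom, calls depended on the test. The edgeR test called 1483 genes higher and 1069 lower. Without a filter on low counts 0 and 0 were called (5568 genes at an unadjusted p under 0.05), and with limma-voom likewise 0 and 0 (3924 at an unadjusted p under 0.05, smallest adjusted p 0.0501). DESeq2 called 2365 higher and 1887 lower, and upper-quartile factors left 701 lower. edgeR's default dispersion, an alternative chosen after seeing the data, gave 1231 higher and 1373 lower. Of the 8 genes of the axis, 0 were called higher with total-count scaling, upper-quartile factors, no filter, limma-voom or the default dispersion, against 1 as reported, and DESeq2 called 2 (Il6 and Il6st). DESeq2 also called 2 lower (Lif and Stat3). Its 2 higher and 2 lower stand beside 16.4% and 13.1% of all genes in that test. Of the 8 genes, 0 were called lower without the filter or with limma-voom, where the adjusted p of Lif was 0.0729 and 0.0724. The cause of these shifts was not tested. No member reversed its direction under these alternatives. Total-count scaling moved the median over all genes from 0.26 to 0.07 (log2). Without the filter or with limma-voom, no gene of the pathway lists was called either. With 1 NOD library alone, Lifr had no difference without NOD 1, and no test was possible. No paired analysis was possible because the labels pair no B6 embryo with a NOD embryo. For Il6, Il6st, Lifr, Ctf1, Ctf2 and Cntfr, 0 counts in B6 allow up to 0.220 CPM.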
